A study of Equus caballus with 6 samples.

Results

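Pentraxin 3 (PTX3), serum amyloid A3 (SAA3), ceruloplasmin (CP), haptoglobin (HP) and orosomucoid 1 (ORM1) are secreted defence and acute-phase proteins, and their transcripts were read in horse lamellar hoof tissue with and without laminitis. Every probe set whose single gene symbol in the platform annotation is one of these 5 symbols was taken and kept apart from the others. This gave 5 of 9155 genes with a symbol and 7 of 24016 probe sets, 3 for CP and 1 for each of the other genes. Laminitis is the failure of the interleaved epidermal and dermal lamellae that hold the coffin bone inside the hoof wall. The laminitis group held right-foot tissue of replicates 1, 3 and 4, labelled diseased, and the normal group held right-foot tissue of replicates 2, 3 and 4, labelled normal. Each sample was hybridised to its own Affymetrix bovine GeneChip. How laminitis arose, the breed, age and sex of the horses, and whether the samples came from separate horses are not given in the sources used here, so the spread between arrays may be technical. The 5 genes were chosen with the laminitis against normal difference already known, so their own differences are given as a description, without a test.

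The acute-phase response is the change in plasma protein synthesis that follows tissue injury or infection. Liver cells make most of these proteins when cytokines, interleukin-6 and interleukin-1 above all, act through the transcription factors STAT3, C/EBP-beta and NF-kB. Pentraxin 3 differs from the short pentraxins, C-reactive protein (CRP) and serum amyloid P (APCS), in that it is made at the site of inflammation, by myeloid, endothelial and stromal cells, where it binds complement C1q and microbes and joins the hyaluronan matrix. SAA3 is the serum amyloid made largely outside the liver in many mammals. Ceruloplasmin is a copper-bearing ferroxidase, haptoglobin captures free haemoglobin, and orosomucoid binds lipophilic ligands.

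The deposited values are linear intensities on a scale common to all arrays, and array medians lay between 86.7 and 96.6. Testing was limited to the 12519 probe sets brighter than the array median on at least 3 of 6 arrays. In the limma fit over these, 0 passed an adjusted p of 0.05 (percent called 0), 1226 had an unadjusted p under 0.05, and the ordinary linear model also called 0. The number of arrays limits the precision. Of the 7 probe sets, 5 were tested: PTX3, which came in through its 3 laminitis arrays alone, SAA3 and the 3 for CP. The HP and ORM1 probe sets lay below the median on all 6 arrays and were not tested. How closely each bovine probe set matches its horse transcript was not examined, and intensities of different probe sets are not compared.

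PTX3 was bright in laminitis and dim in normal lamellae. Its intensity was 518, 464 and 198 on laminitis replicates 1, 3 and 4, against 15.7, 3.77 and 33.6 on normal replicates 2, 3 and 4. All 3 laminitis arrays lay above all 3 normal arrays, and the lowest laminitis value was 5.89 times the highest normal value. The means were 393 ± 171 in laminitis and 17.7 ± 15.0 in normal tissue (SD, n = 3 each). The log2 difference, laminitis minus normal, was 4.85 ± 0.79 (SE), a 28.8-fold ratio of geometric means, and 0 of the 12519 tested probe sets had a larger one. PTX3 was chosen on this contrast and was tested through its laminitis arrays alone. Nothing is therefore read from this rank, nor from that of SAA3 below.

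The size of that ratio depended on how the dim normal values were treated. Within the normal group PTX3 spanned an 8.93-fold range, with an SD of 1.60 on the log2 scale, while the laminitis arrays spanned 2.61-fold with an SD of 0.76. On its own array PTX3 stood at 5.98, 5.16 and 2.13 times the median in laminitis replicates 1, 3 and 4, against 0.162, 0.039 and 0.363 times in normal replicates 2, 3 and 4. On normal replicates 2 and 3 it lay below the 25th percentile of the array. Where every value below its array's median was set to that median, an alternative added with the values known, PTX3 was 3.81-fold higher (log2 1.93 ± 0.34, SE), and 10 tested probe sets had a larger difference. With 64 added to each intensity it was 5.35-fold higher (2.42 ± 0.31, SE), and 2 tested probe sets had a larger difference. In whole tissue, fewer cells of a type and less RNA per cell cannot be told apart for PTX3 or any other transcript here.

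**Figure D1:**
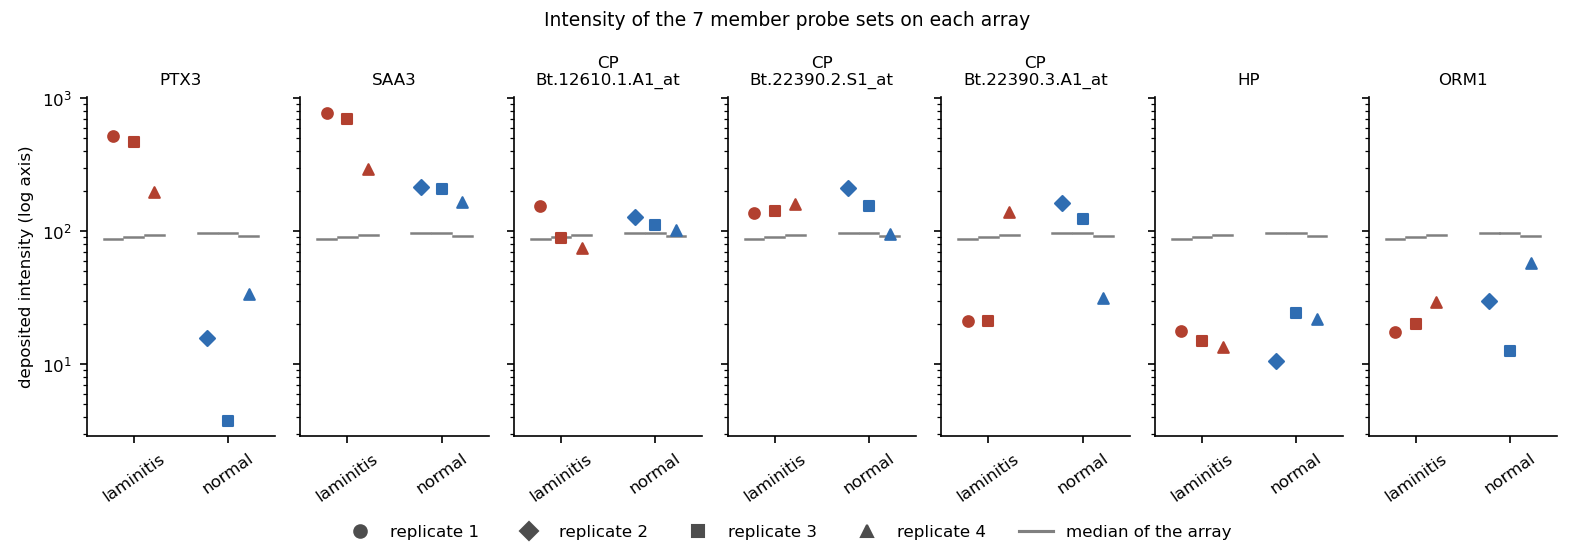
Deposited intensity (log axis) of the 7 probe sets on each array, laminitis left of normal in each panel, with 1 point per array and a grey bar at the median of that array. PTX3 lay above the bars on the 3 laminitis arrays and below them on the 3 normal arrays, SAA3 lay above them on all 6 arrays, and HP and ORM1 lay below them on all 6. Heights are read within a panel only.

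SAA3 was above the array median in both groups and higher in laminitis. Its intensity was 775, 700.1 and 295 on laminitis replicates 1, 3 and 4, against 216, 209 and 165 on normal replicates 2, 3 and 4. The groups did not overlap, and the lowest laminitis array was 1.37 times the highest normal array. Means were 590.1 ± 258 in laminitis and 196 ± 27.3 in normal tissue (SD, n = 3 each). SAA3 was 2.78-fold higher, with a log2 difference of 1.48 ± 0.39 (SE), and 84 of the 12519 tested probe sets had a larger difference. Unlike those of PTX3, its normal arrays were close together, within a 1.31-fold range, so the spread lay in the laminitis group, where the range was 2.63-fold. Serum amyloid A genes are close copies of each other in mammals, and which of the horse copies this bovine probe set reads was not tested.

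PTX3 and SAA3 were the 2 of 5 tested probe sets whose groups stood apart, both with laminitis higher. Over all tested probe sets 7.89% stood apart in that direction, 1.61% did so by at least 2-fold, and 8.92% stood apart in the other direction. The 5 genes were chosen on this contrast, so nothing is read from that count.

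The 3 ceruloplasmin probe sets did not separate the groups. The first (Bt.12610.1.A1_at) read 155, 88.5 and 74.5 in laminitis and 129, 111 and 102 in normal tissue. Its laminitis values lay on both sides of the normal ones, and the log2 difference was -0.17 ± 0.30 (SE). The second (Bt.22390.2.S1_at) read 137, 143 and 161 in laminitis and 213, 154 and 95.9 in normal tissue. There the normal arrays enclosed the laminitis arrays, and the log2 difference was -0.00062 ± 0.31 (SE) as deposited, 0.076 after quantile normalization and 0.082 after centring on the median.

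The third ceruloplasmin probe set (Bt.22390.3.A1_at) varied widely inside each group. It read 21.2, 21.3 and 138 on laminitis replicates 1, 3 and 4, against 164, 124 and 31.6 on normal replicates 2, 3 and 4. High and low arrays occurred in both groups, over a 6.52-fold range in laminitis and a 5.19-fold range in normal tissue. The log2 difference was -1.12 ± 0.89 (SE), and it was -0.27 with values below the array median set to it. The second probe set put the arrays of each group in the same order as the third, over smaller ranges of 1.17-fold in laminitis and 2.22-fold in normal tissue. The first differed in the laminitis group, where replicate 4, high on the third, was lowest.

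Haptoglobin and orosomucoid were dim throughout. HP read 17.8, 14.9 and 13.5 in laminitis and 10.6, 24.3 and 21.8 in normal tissue, below the 25th percentile of all 6 arrays. The laminitis values fell inside the range of the normal ones, and the log2 difference was -0.22 ± 0.37 (SE). ORM1 read 17.5, 20.1 and 29.2 in laminitis and 29.9, 12.5 and 58.0 in normal tissue. Its laminitis arrays also fell inside the normal range, with a log2 difference of -0.36 ± 0.57 (SE), and normal replicate 4 was the highest array. Neither probe set reached the median of any array, and neither had a higher mean in laminitis.

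PTX3 and SAA3 stayed above 0 under each setting tried, and the other probe sets lay near 0 or varied in size. Since the groups of PTX3 and SAA3 did not overlap, leaving out an array, an offset or the floor could not change their sign. Those settings therefore bear on the size of the 2 differences only. With 1 array left out, the log2 difference of SAA3 lay between 1.22 (laminitis replicate 1 left out) and 1.92 (laminitis replicate 4 left out). That of PTX3 lay between 3.98 (normal replicate 3 left out) and 5.56 (normal replicate 4 left out). SAA3 was 1.24 with 64 added. The floor at the array median left SAA3 at 1.48 by construction, since all its values lay above the median. The first ceruloplasmin probe set changed sign without laminitis replicate 4 (0.046), HP without normal replicate 3 (0.0094) and ORM1 without normal replicate 4 (0.17). The second ceruloplasmin probe set lay between -0.31 (normal replicate 4 left out) and 0.27 (normal replicate 2 left out), and the third between -2.02 (laminitis replicate 4 left out) and -0.66 (normal replicate 2 left out).

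**Figure D2:**
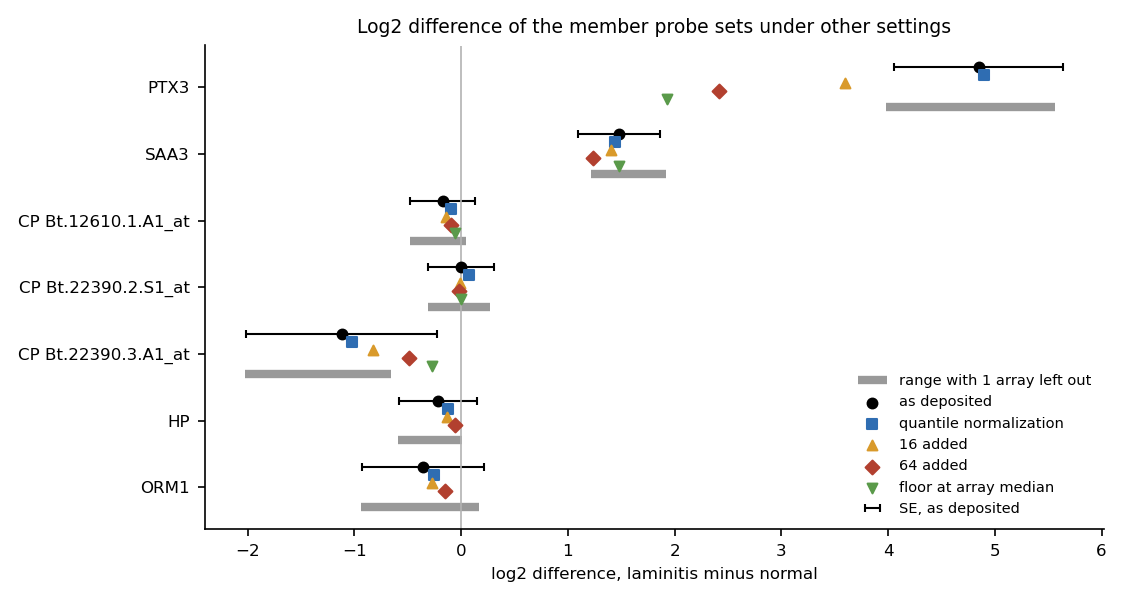
Log2 difference, laminitis minus normal, of the 7 probe sets (rows) as deposited, with its SE, and under quantile normalization, 16 or 64 added to every intensity, and a floor at the array median. Grey bars give the range with 1 array left out. PTX3 ran from 1.93 with the floor to 4.90 after quantile normalization, while SAA3 stayed between 1.24 and 1.48 under the settings drawn, and the bars of HP, ORM1 and 2 ceruloplasmin probe sets crossed 0. HP and ORM1 have no floor value because all their arrays lay at the floor.

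The laminitis arrays kept the same order in PTX3 and SAA3. Replicate 1 was highest, replicate 3 close to it and replicate 4 lowest, by 2.61-fold for PTX3 and 2.63-fold for SAA3. The same order was read in 4 genes of innate defence that are not members, set beside them after their values were seen. It was also read in 1229 of all 6151 tested genes, 137 of them among the 535 that stood apart with laminitis higher. SAA4, the serum amyloid made steadily rather than on induction in other mammals, read 516, 486 and 357 on laminitis replicates 1, 3 and 4. CFB, complement factor B, read 641, 556 and 140 there. The calprotectin subunits S100A8 and S100A9 read 9810, 7256 and 779 and 2947, 2392 and 486. S100A12, another calgranulin, broke this order, with 284, 303 and 28.6, as did a dimmer S100A9 probe set, with 176, 297 and 13.0. FOS, NFKBIA, NFKB2, STAT3, CEBPB and MT2A, also apart and higher in laminitis, broke it too, while FTH1, CEBPA and IL1B kept it. These genes were picked for this after their values were seen. On the normal arrays no such common order was seen: PTX3 was highest on replicate 4, while SAA3, S100A8 and S100A9 were highest on replicate 2 and SAA4 and CFB on replicate 3.

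**Figure D3:**
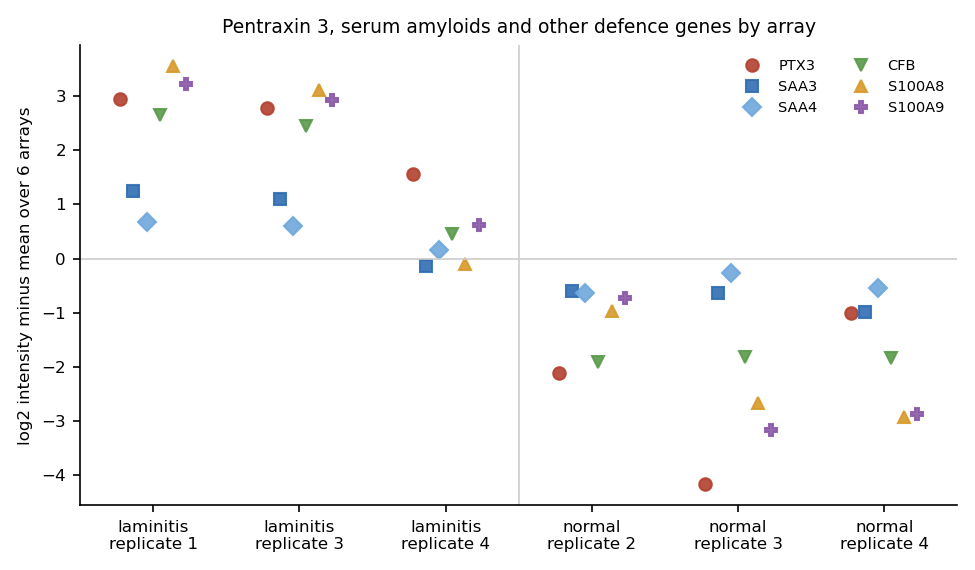
Log2 intensity of 6 probe sets minus each one's mean over the 6 arrays, for laminitis replicates 1, 3 and 4 at the left and normal replicates 2, 3 and 4 at the right. Laminitis replicate 4 lay lowest of the laminitis arrays for PTX3, SAA3, SAA4, CFB, S100A8 and S100A9, and PTX3 ran over 7.10 log2 units from laminitis replicate 1 to normal replicate 3.

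By Pearson correlation of log2 intensity over the 6 arrays, the 5 of 6150 other genes most like PTX3 were USP47, WDFY1, RACK1, PAIP2 and SS18, with r between 0.988 and 0.994. USP47 followed its order of arrays over a far smaller range, while RACK1 and SS18 read slightly higher on laminitis replicate 3 than on replicate 1. USP47 spanned 0.61 log2 units over the 6 arrays, against 7.10 for PTX3. The 5 most like SAA3 were RPL9, FXR1, RPS20, HSPD1 and S100A8, with r between 0.983 and 0.995. HSPD1 and S100A8 spanned 1.92 and 6.48 log2 units, against 2.23 for SAA3. PTX3 and SAA3 themselves had an r of 0.833, which put SAA3 at place 337 in likeness to PTX3. Each r holds the difference between the groups, and the arrays share their scaling. The names depend on how dim values are treated: with 64 added, 0 of the 5 genes nearest PTX3 stayed among its nearest 5.

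Related genes were read from 4 lists chosen with earlier results of these data known: other acute-phase proteins, partners of pentraxin 3, inducing signals, and partners in ligand, haem, iron and copper handling. Together they held 155 genes besides the 5 members, of which 115 had a probe set and 78 were tested, each by its brightest tested probe set. Limma with Benjamini-Hochberg adjustment over all probe sets called 0 of the 78 (percent called over all 6151 tested genes, 0). At an unadjusted p under 0.05 there were 11 higher in laminitis and 2 lower, or 14.1% and 2.56%, against 5.27% and 4.52% of all tested genes. The groups stood apart with laminitis higher in 13 (16.7%, against 8.7% of all tested genes) and lower in 7 (8.97%, against 8.36%). Centring the arrays on their medians made these 14 and 3. The median log2 difference was -0.0058 over the 78 genes and -0.029 over all tested genes.

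Of 17 other acute-phase genes tested, 11 had a positive log2 difference and the median was 0.10. CFB, which cleaves C3 in the alternative complement pathway, averaged 445 in laminitis and 28.1 in normal tissue, with the groups apart. Its log2 difference was 3.71 ± 0.56 (SE, limma adjusted p 0.161), or 1.95 with values below the array median set to it. Without laminitis replicate 4 it was 4.41 and passed (limma adjusted p 0.00900). Like PTX3, CFB was tested through its 3 laminitis arrays alone. Its normal values of 27.0, 28.8 and 28.5 lay below the 25th percentile of their arrays, so nothing is read from that pass. Over 15 alternatives the limma adjusted p of CFB ranged from 0.00900 to 0.473. SAA4 averaged 453 in laminitis and 232 in normal tissue, a 1.94-fold difference with the groups apart (log2 0.96 ± 0.23, SE, limma adjusted p 0.322).

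Fibronectin (FN1) and albumin (ALB) were lower in laminitis without passing. FN1 averaged 471 in laminitis and 739 in normal tissue (-0.72 ± 0.36, SE, limma adjusted p 0.563), and -0.35 without laminitis replicate 3, while a dimmer FN1 probe set gave -0.30. The ALB probe set that stood for the gene had -0.29 ± 0.18 (SE, limma adjusted p 0.638), and its other 8 probe sets ran from -0.83 to 0.92. The short pentraxin CRP, named after its values were seen, read 156, 154 and 161 in laminitis and 59.3, 146 and 146 in normal tissue, with the groups just apart. The difference was 0.54 ± 0.37 (SE, limma adjusted p 0.660) and 0.11 without normal replicate 2. A dim CRP probe set gave -0.21. The APCS probe set was below the filter and gave -0.13.

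Of 19 tested partners of pentraxin 3 in complement and matrix, 8 had a positive log2 difference and the median was -0.021. TNFAIP6, the protein TSG-6 that binds pentraxin 3 in the hyaluronan matrix, read 317, 517 and 115 in laminitis and 133, 111 and 96.5 in normal tissue. Laminitis replicate 4 lay among the normal arrays, and the log2 difference was 1.24 ± 0.52 (SE, limma adjusted p 0.508), or 1.85 without that array and 0.76 without laminitis replicate 3. A dim TNFAIP6 probe set gave 0.043. CD44, the hyaluronan receptor, was apart and 1.26-fold higher (0.33 ± 0.19, SE, limma adjusted p 0.601).

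MBL1, a mannose-binding collectin of the lectin pathway, and the proteoglycan versican (VCAN) had negative differences. MBL1 averaged 91.1 in laminitis and 211 in normal tissue with the groups apart (-1.29 ± 0.36, SE, limma adjusted p 0.368), while its other tested probe set gave 0.13. With 64 added the MBL1 difference was -0.85. VCAN had -1.15 ± 0.62 (SE, limma adjusted p 0.597) with overlapping groups, from -1.73 without normal replicate 2 to -0.62 without laminitis replicate 1, and its other 2 probe sets gave -0.85 and -0.51. The C1q chain C1QA was below the filter, and C1QB had a log2 difference of -0.28 ± 0.26 (SE, limma adjusted p 0.750). Both were named after their values were seen.

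Among 32 tested cytokines, receptors and transcription factors that induce these proteins, 13 had a positive log2 difference and the median was -0.064. The groups stood apart with laminitis higher in 7 (21.9%, against 8.7% of all tested genes) and lower in 3 (9.38%, against 8.36%). FOS, an AP-1 subunit, read 2593, 1443 and 1969 in laminitis and 393, 294 and 495 in normal tissue (2.34 ± 0.30, SE, limma adjusted p 0.131), with -0.017 by a dimmer probe set. NFKBIA, which holds NF-kB in the cytoplasm, read 951, 1068 and 901 in laminitis and 341, 281 and 408 in normal tissue (1.52 ± 0.21, SE, limma adjusted p 0.136). NFKB2, whose product is a subunit of NF-kB, was 1.91-fold higher (0.94 ± 0.24, SE, limma adjusted p 0.345). IL1RN, the interleukin-1 receptor antagonist, read 28.0, 16.4 and 94.4 in laminitis and 136, 153 and 114 in normal tissue (-1.92 ± 0.60, SE, limma adjusted p 0.424). With values below the array median set to it the IL1RN difference was -0.56.

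The signal path from interleukin-6 to acute-phase genes was followed gene by gene after the values were seen. IL6 itself was below the filter: it read 30.6, 113 and 64.8 in laminitis and 20.0, 7.76 and 11.3 in normal tissue, apart but with 5 of 6 values below the array median. Its receptor IL6R had -0.070 and JAK1 had -0.058, both with overlapping groups. STAT3 read 228, 165 and 174 in laminitis and 138, 91.3 and 105 in normal tissue (0.77 ± 0.24, SE, limma adjusted p 0.430). CEBPB, the C/EBP-beta gene, read 324, 453 and 158 in laminitis and 130, 146 and 58.9 in normal tissue (1.46 ± 0.49, SE, limma adjusted p 0.455), and its other probe set gave 2.01, also with the groups apart. CEBPD had -0.48 with overlapping groups, and its other tested probe set gave 0.11. SOCS3, the feedback inhibitor of this path, gave 0.61 by its tested probe set with overlapping groups, and 0.057 there without normal replicate 2. Its dimmer probe set read 17.2, 154.8 and 104.3 in laminitis and 8.85, 17.1 and 15.9 in normal tissue, a log2 difference of 2.28 with the groups just apart. TNF, a cytokine of the same list but outside this path, was dim. It read 17.7, 16.04 and 21.1 in laminitis and 18.3, 98.3 and 18.8 in normal tissue. Its log2 difference of -0.83 was -0.029 without normal replicate 3.

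Of 15 tested genes of ligand, haem, iron and copper handling, 10 had a positive log2 difference and the median was 0.020. The metal-binding metallothionein MT2A was 2.01-fold higher, with 1446, 1532 and 1176 in laminitis and 745, 653 and 656 in normal tissue (1.01 ± 0.20, SE, limma adjusted p 0.237). Ferritin heavy chain FTH1, which stores iron, averaged 2019.5 in laminitis and 1342 in normal tissue (0.58 ± 0.20, SE, limma adjusted p 0.465), or 0.29 after quantile normalization. As deposited, both kept the groups apart. Myeloperoxidase (MPO), which ceruloplasmin binds, was apart and lower (-0.44 ± 0.21, SE, limma adjusted p 0.561), with 0.17 by a dim probe set, and the iron reductase STEAP3 had -0.23 ± 0.21 (SE, limma adjusted p 0.737). HMOX1, the haem oxygenase downstream of haemoglobin uptake, overlapped between the groups at -0.37 ± 0.55 (SE, limma adjusted p 0.847), or 0.29 without laminitis replicate 4, and was named after its values were seen.

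**Figure D4:**
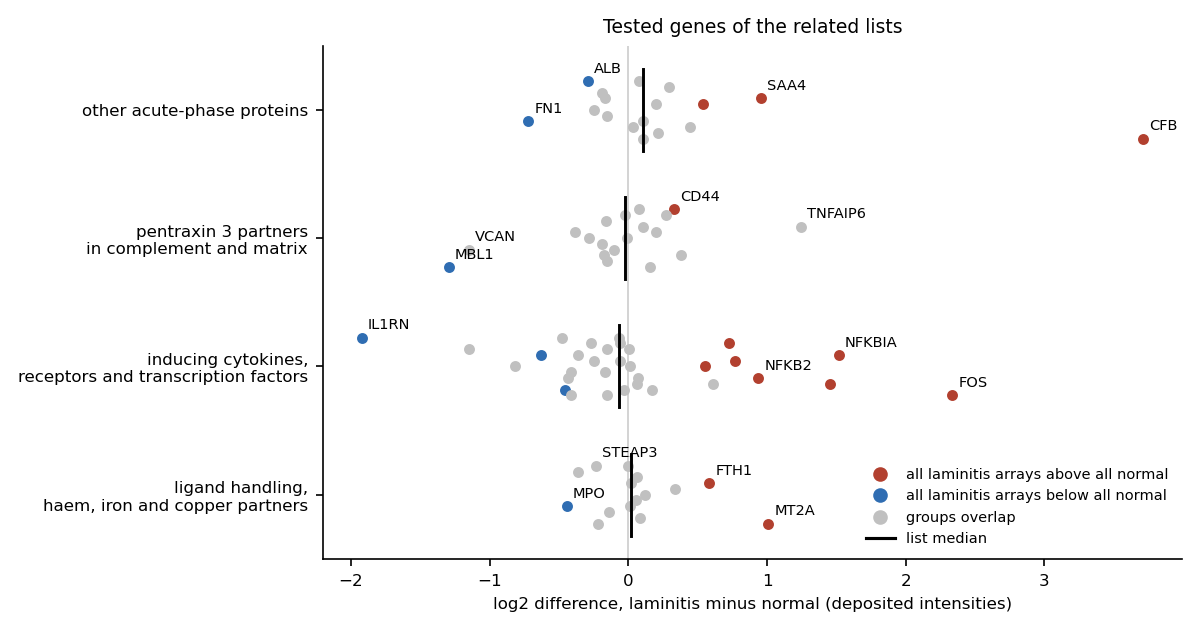
Log2 difference, laminitis minus normal, of each tested gene in the 4 related lists (rows), on the deposited scale. Colour marks genes whose laminitis arrays all lay above or all below the normal arrays, black bars are list medians, and the 4 genes of smallest p in each list are named. The list medians lay between -0.064 and 0.10, and CFB lay farthest right at 3.71.

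Markers of other cells were summed per array, each gene by its brightest probe set. The summed neutrophil intensity over 11 genes ran from 1722 to 13510 in laminitis and from 790.1 to 1242 in normal tissue, with laminitis replicate 4 lowest of its group, as for PTX3 and SAA3. Its brightest tested genes were S100A8 and S100A9, which stressed keratinocytes also make. Without S100A8, S100A9 and S100A12, a split made after the values were seen, the other 8 neutrophil genes summed to between 396 and 470 in laminitis and between 605 and 641 in normal tissue. CXCR1, PGLYRP1, LTF, CAMP and MMP9 lay below the median on all 6 arrays. The 9 monocyte and macrophage genes summed to between 996 and 1246 in laminitis and between 962 and 1003 in normal tissue, where FCER1G had a log2 difference of 0.17 and CD14 of -0.16. In that list CYBB, a subunit of the phagocyte oxidase, was the tested gene whose groups stood apart, with 233, 265 and 256 in laminitis and 37.4, 40.8 and 107 in normal tissue (2.20 ± 0.41, SE, limma adjusted p 0.222). A dimmer CYBB probe set below the filter had overlapping groups, at 0.62. CSF1R, the macrophage growth factor receptor, was below the filter and apart with laminitis lower, at -0.74. CYBB and CSF1R were named after their values were seen. The part of these cells in the PTX3 and SAA3 differences was not tested.

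The 12 hepatocyte genes, which could mark plasma protein transcripts of liver type, summed to between 1621 and 1922 in laminitis and between 1727 and 1789 in normal tissue, so the laminitis arrays lay on both sides of the normal ones. Their brightest tested genes AHSG and ALB had log2 differences of 0.29 and -0.29. The other tested AHSG probe sets ran from -1.48 to 0.58, all with overlapping groups. F2, TF, APOA2 and FGG lay below the median on all 6 arrays. The 5 erythroid genes summed to between 88.3 and 225 in laminitis and between 115 and 143 in normal tissue, with 4 of them below the median on all 6 arrays. Of the 10 keratinocyte markers of the labelled tissue 8 were bright enough to be tested, and KRT17 and KRT14 had log2 differences of 0.60 each with overlapping groups, where KRT14 was at 0.004 without normal replicate 4. Among the others, chosen after their values were seen, COL17A1 had -0.32, KRT10 -0.25, KRT15 -0.13 and the dim PERP -0.67, all overlapping. KRT5 at 0.11, DSC3 at 0.14 and ITGB4 at 1.29 overlapped too. ITGB4 read 206, 504 and 566 in laminitis and 276, 190 and 76.5 in normal tissue. The median over the 8 tested genes was 0.12. LAMB3, a laminin chain of the basement membrane, was below the filter and apart, with 123, 85.5 and 100.2 in laminitis and 36.3, 28.3 and 38.3 in normal tissue (1.58). The 10 keratinocyte genes summed to between 2144 and 3325 in laminitis and between 1619 and 2570 in normal tissue.

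Fibroblast sums overlapped, at 8986 to 30617 in laminitis and 9665 to 31795 in normal tissue, with COL1A2 at 0.35 and COL1A1 at 0.31, both below 0 without laminitis replicate 4 (-0.35 and -0.29) or without normal replicate 2 (-0.37 and -0.36). Their other probe sets gave -0.48 and -0.42. DCN, the matrix proteoglycan decorin, was apart and lower, with 724, 787 and 1199 in laminitis and 2365, 1685 and 4898 in normal tissue (-1.61 ± 0.42, SE, limma adjusted p 0.345). FBLN1 had -0.69 and MFAP4 -0.58 with overlapping groups. COL3A1 at -0.21, THY1 at 0.067 and LUM at 0.42 also overlapped, and PDGFRA was apart and higher at 0.35. The median over the 9 tested fibroblast genes was 0.067. Apart from COL1A2 and COL1A1, these genes were named after their values were seen. Laminitis replicate 4, the lowest laminitis array for PTX3 and SAA3, had the highest keratinocyte, fibroblast, endothelial, adipocyte and erythroid sums of its group. Its neutrophil, monocyte and macrophage, and hepatocyte sums were the lowest of the group. Endothelial sums were 688 to 904 in laminitis and 718 to 984 in normal tissue, with PECAM1 at 0.043 and KDR at -0.050. With 1 array left out, another PECAM1 probe set ran from -0.67 to -0.020 and another KDR probe set from -1.47 to -0.085. Adipocyte sums did not overlap, at 218 to 256 in laminitis and 289 to 360 in normal tissue. FABP4, the tested gene of that list, had -0.88 with the groups apart, and its dimmer probe set gave 0.034. The other adipocyte genes, CIDEC, LEP, ADIPOQ and LPL, were below the filter and overlapped, at -0.045, -0.017, 0.19 and 0.27. They were named after their values were seen. The part of these tissues in the member genes' values was not tested.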

How the data were processed

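RNA of 3 laminitis and 3 normal lamellar samples was amplified linearly, labelled with biotin and hybridised to bovine GeneChips, per the labels' protocols. The deposited values are linear intensities at 1 common level: the mean after trimming 2% at each end was 149.98 on every array. The submitters' processing notes name GCRMA, which yields log2 values, so how this linear scale was made remains unknown.

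The table held 24128 probe sets including 112 controls, which were dropped. Of the other 24016, 13292 had 1 gene symbol, 86 several and 10638 none. The symbols come from the platform annotation and may be outdated. PTX3 and CP, 2 of the 5 member symbols, were found in RefSeq's gene table for the horse (assembly TB-T2T). The log2 intensities, without an offset, entered the moderated linear model of limma 3.58.1 (R 4.3.3). Its two-sided p-values were adjusted by Benjamini-Hochberg over the 12519 tested probe sets. Differences of HP and ORM1 come from a fit of all 24016. Samples were grouped by title, and 0 values were identical between any pair of arrays.

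The members and lists were chosen with earlier results of these data known. Named genes are the members, the 4 of smallest p per list, the 5 most like PTX3 and SAA3, and the 2 brightest tested genes per marker list, fixed by that rule. Others are said in the text to be named after their values were seen. For S100A9, the tested probe set is given. Alternatives were other scalings, offsets, filters and variance models, the replicate number as a block, and leaving out each array.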

Additional observations from a re-analysis of the deposited data

How the results depend on the processing

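The log2 differences of SAA3, the 3 CP probe sets, HP and ORM1 moved by less than the spread between replicates under the scalings and offsets tried and under the replicate block, where the second CP probe set, near 0, was the one to change sign. The log2 difference of PTX3 moved by more, to 3.60 with 16 added, 2.42 with 64 added and 1.93 with values below the array median set to it, a floor chosen after the data were seen. The replicate numbers 3 and 4 occur in both groups, and their deviations from the group means had r of -0.017 and -0.031 over 12519 probe sets. Pairs of unlike number had r between -0.042 and 0.060. With so few arrays, these values cannot show whether a shared number marks a shared horse or batch. With the replicate block PTX3 had 4.75 and SAA3 1.29, and limma called 0 probe sets. Only replicates 3 and 4 enter the block estimate, since laminitis replicate 1 and normal replicate 2 have no partner of their number. Those 2 pairs were unlike for PTX3, at 464 against 3.77 on replicate 3 and 198 against 33.6 on replicate 4.

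Probe sets called by limma were 0 in each direction as deposited. They were 7 higher and 1 lower with the floor, 6 higher among those above the median on all 6 arrays, and 4 higher with an intensity trend and robust variance, with 0 to 2 higher when 1 array was left out, 2 of them without laminitis replicate 4. Within the related lists these settings called 1 (FOS), 2 (FOS and NFKBIA), 1 (FOS) and, without laminitis replicate 4, 1 (CFB, leave-out range 0 to 1). The list genes that stood apart and lower, 7 as deposited, were 3 after median centring and 7 to 13 with 1 array left out, where 12 stood apart without laminitis replicate 1 or 3 and 13 without normal replicate 2, fewer arrays making separation easier. Of the 5 genes most like PTX3, 2 stayed after quantile normalization and 0 with 64 added. Dim signal limits HP, ORM1 and the normal values of PTX3 and CFB.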
